A study of Homo sapiens with 5 samples.

Results

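In RIPseq of MCF10A cells, 28 genes of 56632 in the tables were above a threshold of enrichment with CBFB and below it with hnRNPK. Enrichment was the log2 ratio of FPKM + 1 in an immunoprecipitate (RIP) to FPKM + 1 in its own input, minus the mean of that ratio over the 11764 genes whose mean FPKM over the 5 libraries was at least 1 (the analysed genes). FPKM is the estimated number of fragments per kilobase of transcript, scaled to the fragments of the library. A gene was taken when its enrichment was above 1 in the FLAG-CBFB RIP and below 1 in both hnRNPK RIPs. It also needed at least 100 expected counts in each input and input FPKM within 2-fold of each other, and mitochondrially encoded genes and CBFB itself were left out. The 28 genes were thus chosen by their enrichment in all 3 RIPs and by their input levels, which are given as a description and were not tested.

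MCF10A is an established, non-tumorigenic line of human breast epithelial cells. The series held 5 libraries from untreated cells below passage 20, all grown in DMEM/F12 with horse serum, insulin, EGF, hydrocortisone and cholera toxin. A stable MCF10A derivative expressing FLAG-tagged CBFB gave 1 input and 1 RIP with FLAG antibody, and parental MCF10A cells gave 1 input and 2 RIP repeats with hnRNPK antibody. For stable lines the study's methods describe CBFB KO cells that received FLAG-tagged CBFB, with the tag at either end, from a lentiviral vector under blasticidin selection. The labels do not say whether the RIP line was one of these and so lacked its own CBFB, nor whether it was 1 clone, and they do not give the promoter. They also do not say whether the hnRNPK repeats came from separate cultures, and no mock immunoprecipitation was analysed here. Differences between the cell lines and differences between the antibodies therefore cannot be told apart by design. Of the basal mammary markers, 9 of 9 had an FPKM of 1 or more in both inputs, with a summed FPKM of 4179.73 in FLAG-CBFB cells and 3380.82 in parental cells. Of the luminal markers, 4 of 6 reached 1 in both, and their sum was 392.64 and 910.67, with KRT8 at 76.63 and 195.77 and KRT18 at 305.47 and 701.82, while ESR1 was below 1 and PGR at 0. Of the fibroblast markers 1 of 4 reached 1 in both inputs (COL1A1), with sums of 1.18 and 1.89, and of the endothelial markers 0 of 2 did. Of the leukocyte markers 1 of 3 reached 1 in FLAG-CBFB cells (CD68, 3.92) and 0 of 3 in parental cells (CD68, 0.80), with sums of 3.92 and 0.82 and PTPRC at or near 0. The part of these differences between the inputs in the values below was not tested.

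CBFB, the subunit of core binding factor that does not itself contact DNA, is best known as the partner of the RUNX transcription factors in the nucleus. hnRNPK is an RNA-binding protein with KH domains that prefer single-stranded runs of C, and it belongs with PCBP1 to PCBP4 to the poly(C)-binding protein family. In a RIP, an antibody takes the protein from a lysate and the RNA held on it, directly or through another protein, is sequenced. The study asked which transcripts CBFB binds and whether it does so with hnRNPK.

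Runs of C were present in the members but were not particular to them. The longest run of C had a median of 5 nt both in the members and in the analysed genes. A 30-nt window with at least 16 C was present in 85.2% of 27 members and 71.1% of 11538 analysed genes with a transcript model. The windows printed here are the 30 nt with the most C in the transcript model closest in length to the mean length in the parental input. They are shown for the 5 members with the widest distance between the RIPs, for 3 abundant members, and for 2 relatives, PCBP2 and IFITM2, that were strong in all 3 RIPs. Coordinates are those of GENCODE 29 on GRCh38, the sequence is that of the RNA strand written 5′ to 3′ with T for U, and capitals mark runs of at least 3 C.
IFITM3: CCCCacaaCCCtgctCCCCCgacgtccacc
CST3: ctccagcctctcgcctgcgCCCCactCCCC
PHF19: ccttccatcctCCCCagtCCCtgcctctcc
CYSRT1: ctgagCCCCgCCCCatggCCCCgCCCCtcc
CHCHD10: CCCCCaCCCCCgctgCCCCCCagCCCCtgc
CSNK2B: ccactCCCCCCaCCCCacttcgcctgccgc
RAB25: ccgtcctctctgcttccttacagcaCCCCC
PCBP1: CCCtcgCCCaCCCgCCCgCCCgccgctCCC
PCBP2: CCCCacaccaCCCCgtccatgtgcctcaac
IFITM2: CCCCacaaCCCtgctCCCCCgatgtccacc

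The IFITM3 window lies in the coding sequence of exon 1 of 2 (chr11:320682-320711, minus strand) and holds 19 C. The CST3 window lies in the 5′ UTR of exon 1 of 3 (chr20:23637885-23637914, minus strand) and holds 19 C, and the PHF19 window lies in coding sequence (chr9:120869810-120869839, minus strand) and holds 18. The CYSRT1 window spans the start of the coding sequence (chr9:137225108-137225137, plus strand) with 19 C, and the CHCHD10 window is coding (chr22:23766245-23766274, minus strand) with 22. The windows of CSNK2B (chr6:31666085-31666114, plus strand, 20 C), RAB25 (chr1:156061168-156061197, plus strand, 16 C) and the single-exon gene PCBP1 (chr2:70087515-70087544, plus strand, 22 C) lie in 5′ UTRs. The window of PCBP2 is coding (chr12:53464796-53464825, plus strand, exon 9 of 15, 17 C), as is that of IFITM2 (chr11:308292-308321, plus strand, 18 C). The IFITM3 and IFITM2 windows differ at 1 position, C23T, counted from the 5′ end of the window.

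The libraries differed in composition in a way that touches every value below. Library totals lay between 69786576 and 106855647 expected counts, and mitochondrial genes took 4.27% and 11.18% of the inputs, 62.18% of the FLAG-CBFB RIP and 84.51% and 86.58% of the hnRNPK RIPs. The values subtracted in centring were -1.34 with FLAG-CBFB and -2.61 and -2.68 with the hnRNPK repeats. A member with an hnRNPK enrichment above 0 therefore still had a lower FPKM in the RIP than in the input. The rule fixes that all 28 members had a lower FPKM than the parental input in both hnRNPK RIPs, as did 94.1% of the analysed genes. In the FLAG-CBFB RIP, whose ratio the rule also used, 11 of the 28 had a higher FPKM than the input. The share was 79.2% in the genes above 1 in all 3 RIPs (519 of 655) and 7.0% in the analysed genes. Without centring, the members' median log2 ratio was -0.087 with FLAG-CBFB and -2.13 with hnRNPK, so their positive enrichments are relative to the average gene. The set also depended on the processing, with between 11 and 103 genes meeting the rule over the alternatives in scaling, filter and threshold. From 0 to 28 of the reported members were among them. All 28 were kept only where a criterion or an hnRNPK repeat was left out, which cannot lose a member. Elsewhere at most 24 were kept, with median centring.

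The members were a small remainder of the CBFB-enriched transcripts. Of the 9987 genes that met the input criteria, 706 were above 1 in the FLAG-CBFB RIP (background 7.07%, and 9.27% of the analysed genes). Of these 706 genes, 655 (92.8%) were also above 1 in both hnRNPK RIPs and are called shared genes below, 23 were above 1 in 1 of the 2, and 28 (3.97%) were below 1 in both. Being below 1 in both hnRNPK RIPs was common, at 80.5% of the genes that met the input criteria and 77.2% of the analysed genes, and 20.9% and 20.8% of the analysed genes were above 1 in hnRNPK repeats 1 and 2. The members sat at the low edge of the CBFB values as well. Their FLAG-CBFB enrichment had a median of 1.25 and ran from 1.0001 to 1.88, and 22 of the 28 were below 1.5, while the median was 1.97 in the shared genes and -0.19 in the analysed genes. As many as 352 shared genes had a higher FLAG-CBFB enrichment than the highest member.

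**Figure D1:**
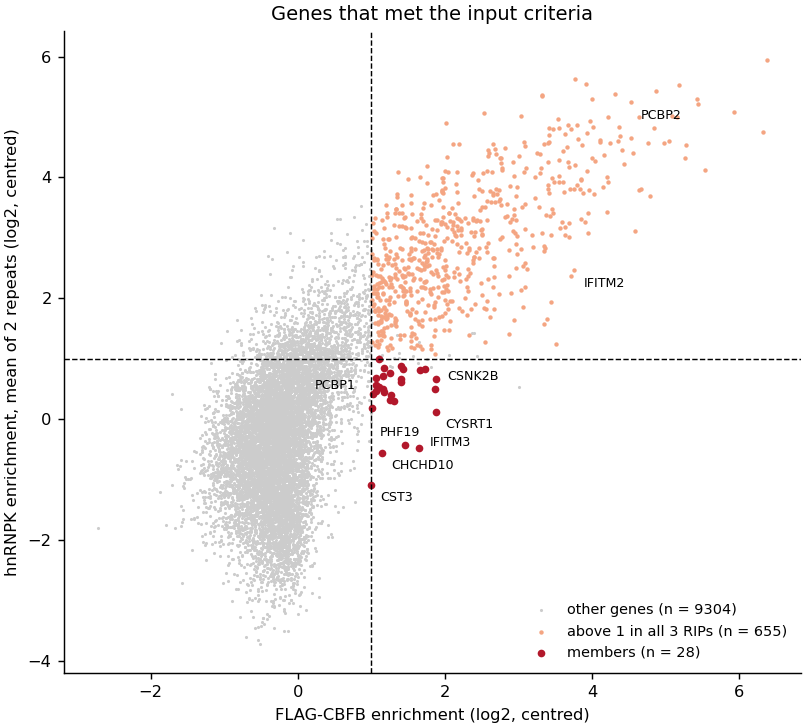
Each point is 1 of the 9987 genes that met the input criteria, with FLAG-CBFB enrichment (log2, centred, 1 library) on the x axis and the mean hnRNPK enrichment of 2 repeats (log2, centred) on the y axis, and dashed lines mark the threshold of 1. The 28 members (red) fill the lower edge next to the threshold, with 4 of them under 0 on the hnRNPK axis, while the 655 shared genes (orange) spread upward from it.

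hnRNPK enrichment of the members had a median of 0.51 over the repeat means and ran from -1.09 to 0.99, while the medians were 2.81 in the shared genes and -0.11 in the analysed genes. Most members were thus not depleted in the hnRNPK RIP relative to the average gene, and 4 of 28 were below 0 in both repeats. Those 4 were IFITM3, PHF19, CHCHD10 and CST3. Among the 706 CBFB-enriched genes the mean hnRNPK enrichment was under 0 in 4, under 1 in 35, under 2 in 186 and under 3 in 417. The SD between the repeats had a median of 0.15 and a highest value of 0.48 in the members. Its median was 0.18 in the shared genes and 0.11 in the analysed genes. Neither repeat was the higher one throughout, repeat 1 being above repeat 2 in 15 of the 28 members.

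The distance between the RIPs is given as the gap, the FLAG-CBFB enrichment minus the mean hnRNPK enrichment. It had a median of 0.76 and ran from 0.12 to 2.13 in the members, where the rule sets it above 0, and its median was -0.73 in the shared genes and -0.10 in the analysed genes. The gap was above 1 in 8 members and above 1.5 in 5, IFITM3, CST3, PHF19, CYSRT1 and CHCHD10. Of the 9987 genes that met the input criteria, it was above 1 in 1795 and above 1.5 in 940. The spread of the FLAG-CBFB RIP and of either input was not measured, so no error can be set beside a gap.

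**Figure D2:**
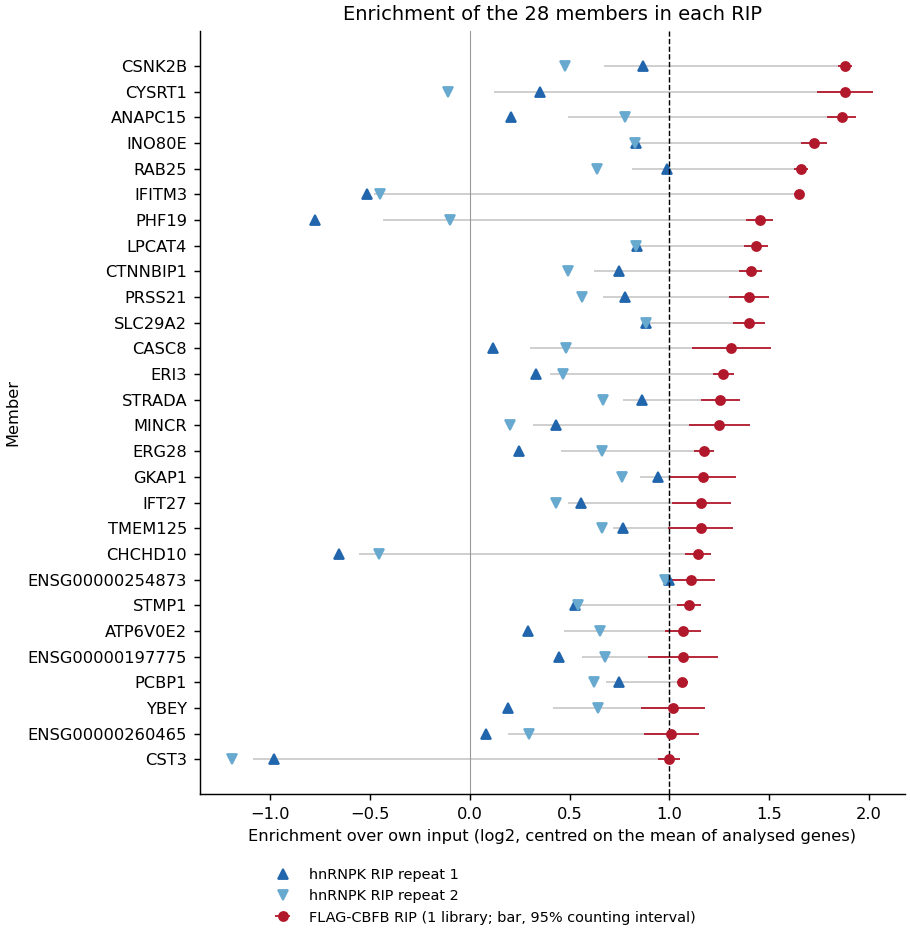
Centred log2 enrichment over the own input for each of the 28 members, ordered by FLAG-CBFB enrichment (red circle, 1 library, bar 95% counting interval), with hnRNPK RIP repeat 1 (dark blue upward triangle) and repeat 2 (light blue downward triangle). The dashed line marks the threshold of 1, and the 4 members with both triangles left of 0 are IFITM3, PHF19, CHCHD10 and CST3.

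The members are taken here by what their proteins are known to do, an order for description that was not tested. IFITM3 is an interferon-induced membrane protein that restricts the entry of enveloped viruses. Its FPKM was 368.05 in the FLAG-CBFB cell input and 456.69 in the FLAG-CBFB RIP. In parental cells it was 372.97 in the input, 42.00 in hnRNPK repeat 1 and 41.80 in repeat 2. The inputs were nearly level, the FLAG-CBFB RIP was 1.24 times its input, and the hnRNPK RIPs were 8.88 and 8.92 times lower than theirs. As plain FPKM ratios, without the added 1, these were 0.113 and 0.112, above the medians of 0.061 and 0.055 over the analysed genes. The FPKM values gave a FLAG-CBFB enrichment of 1.65, hnRNPK enrichments of -0.51 and -0.45, and a gap of 2.13, the largest among the 28 members. IFITM2, which has a closely similar sequence, stood at 3.76 with CBFB and at 2.33 and 2.59 with hnRNPK, and reads that match both genes were divided between them by estimation, so the difference between the 2 genes is uncertain. Of 20 genes in the list of interferon response genes that met the input criteria, 4 were above 1 with CBFB, where the share over all such genes was 7.07%. Of these 4 genes, 3 were shared, against 92.8% over all genes.

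CST3 encodes cystatin C, a secreted inhibitor of cysteine proteases. Its FPKM was 83.91 in the FLAG-CBFB cell input and 66.10 in the FLAG-CBFB RIP. Parental cells had 139.60 in the input, 10.68 in hnRNPK repeat 1 and 8.62 in repeat 2. The transcript was lower in all 3 RIPs than in their inputs, by far the most in the hnRNPK RIPs, at 13.1 and 16.2 times lower. Most genes fell as far there. The plain FPKM ratios of CST3 were 0.0765 and 0.0617, beside medians of 0.0608 and 0.0545 over the analysed genes. Its hnRNPK enrichments of -0.98 and -1.19 were the lowest among the members, and its FLAG-CBFB enrichment of 1.0001 lay at the threshold. The gap was 2.09.

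CYSRT1, a small cysteine-rich protein, had an FPKM of 9.03 in the FLAG-CBFB cell input, 13.56 in the FLAG-CBFB RIP, 11.01 in the parental input, then 1.51 and 0.74 with hnRNPK. The FLAG-CBFB RIP was 1.502 times its input, the highest ratio among the members, on 615 and 774 expected counts. The hnRNPK RIPs rested on 99 and 46 counts. Enrichment was 1.88 with CBFB and 0.35 and -0.11 with hnRNPK, with a gap of 1.76.

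RAB25, a small GTPase of recycling endosomes in epithelial cells, was one of the most abundant members. Its FPKM was 144.38 in the FLAG-CBFB cell input and 180.19 in the FLAG-CBFB RIP. In parental cells it was 157.37 in the input, 50.48 in hnRNPK repeat 1 and 37.46 in repeat 2. Its enrichment was 1.66 with CBFB and 0.99 and 0.64 with hnRNPK, so repeat 1 lay just under the threshold. Of 55 RAB genes that met the input criteria, 8 were above 1 with CBFB and 7 of these were shared, beside 7.07% and 92.8% over all genes. RAB11B, from the same branch of the family, was among them at 3.49 with CBFB and at 4.10 and 3.76 with hnRNPK, whereas RAB11A was at -0.54 and at -2.18 and -2.62.

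PRSS21, a membrane-anchored serine protease, had a FLAG-CBFB enrichment of 1.40 against 0.78 and 0.56 with hnRNPK. LPCAT4, an acyltransferase of phospholipid synthesis, had 1.43 against 0.84 and 0.83, and SLC29A2, an equilibrative nucleoside transporter, had 1.40 against 0.88 and 0.89. ATP6V0E2, a subunit of the proton pump of lysosomes, had 1.07 against 0.29 and 0.65. ERG28, an endoplasmic reticulum protein of sterol synthesis, had 1.17 against 0.25 and 0.66, and TMEM125, a transmembrane protein, had 1.16 against 0.77 and 0.67. The FPKM of PRSS21, LPCAT4 and SLC29A2 in the FLAG-CBFB RIP was 1.05, 1.07 and 1.04 times the input, and that of ATP6V0E2, ERG28 and TMEM125 was below the input.

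CSNK2B, the regulatory subunit of protein kinase CK2, had the highest FLAG-CBFB enrichment of the 28. Its FPKM was 147.44 in the FLAG-CBFB cell input and 214.75 in the FLAG-CBFB RIP. Parental cells had 187.52 in the input, 55.30 in hnRNPK repeat 1 and 39.92 in repeat 2. Enrichment was 1.88 with CBFB and 0.87 and 0.48 with hnRNPK. The catalytic subunits differed from it in the FLAG-CBFB RIP, with CSNK2A1 at -0.79 and CSNK2A2 at -0.45, while in the hnRNPK RIPs CSNK2A1 stood at 0.32 and -0.29 and CSNK2A2 at 0.89 and 0.63.

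PHF19, an accessory protein of the Polycomb repressive complex that methylates histone H3, had an FPKM of 31.06 in the FLAG-CBFB cell input and 33.65 in the FLAG-CBFB RIP. It had 58.69 in the parental input, 4.73 in hnRNPK repeat 1 and 7.70 in repeat 2. Enrichment was 1.45 with CBFB and -0.77 and -0.10 with hnRNPK, the widest split between the repeats among the members. The gap was 1.89. Plain FPKM ratios of PHF19 in the hnRNPK RIPs were 0.0806 and 0.1312, above the medians of 0.0608 and 0.0545 over the analysed genes. The transcript length that RSEM estimates in each library, by which FPKM divides, differed as well. The mean PHF19 length was 1559 nt in the FLAG-CBFB cell input and 1016 nt in the FLAG-CBFB RIP. For parental cells it was 1453 nt in the input, 1810 nt in hnRNPK repeat 1 and 1612 nt in repeat 2. On log2 CPM, that is counts scaled by library and with no length, the PHF19 gap was 0.44 with TMM scaling.

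CTNNBIP1, an inhibitor of the β-catenin to TCF interaction, showed the same kind of shift in length, from 1451 nt in the input to 1134 nt in the FLAG-CBFB RIP, with 1475 nt in the parental input and 1471 and 1484 nt with hnRNPK. Its FPKM was 41.69 and 43.73 in the input and RIP of FLAG-CBFB cells, and 21.30, 5.14 and 3.90 for the parental input and hnRNPK repeats 1 and 2. It was the member with the largest input ratio, 1.957 times higher in FLAG-CBFB cells than in parental cells. Enrichment was 1.41 with CBFB and 0.75 and 0.49 with hnRNPK, and its gap of 0.79 became -0.076 on log2 CPM with TMM scaling. Over all 28 members the length in the FLAG-CBFB RIP was a median of 0.996 times that in the input, and PHF19 and CTNNBIP1 had the lowest ratios, 0.65 and 0.78.

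ANAPC15, a subunit of the anaphase-promoting complex, had a FLAG-CBFB enrichment of 1.86 against 0.21 and 0.78 with hnRNPK, and INO80E, a subunit of the INO80 chromatin remodeller, had 1.72 against 0.83 and 0.83. STRADA, the pseudokinase that activates LKB1, had 1.26 against 0.87 and 0.67. GKAP1, an anchoring protein of cGMP-dependent kinase, had 1.17 against 0.94 and 0.76. IFT27, a Rab-like protein of intraflagellar transport, had 1.16 against 0.56 and 0.43. ANAPC15 and INO80E had a higher FPKM in the FLAG-CBFB RIP than in the input, at 1.45 and 1.31 times, while STRADA, GKAP1 and IFT27 had a lower one.

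The members include a relative of hnRNPK. PCBP1 is a poly(C)-binding protein with KH domains, and its FPKM was 149.89 in the FLAG-CBFB cell input and 123.71 in the FLAG-CBFB RIP. In parental cells it was 165.71 in the input, 44.85 in hnRNPK repeat 1 and 39.11 in repeat 2. All 3 RIPs were below their inputs. Enrichment was 1.06 with CBFB and 0.75 and 0.62 with hnRNPK, so the gap was 0.38, and it was below 0 on log2 CPM (-0.28 with TMM scaling). PCBP2 stood apart from it with 4.53 with CBFB and 5.51 and 4.97 with hnRNPK, where its FPKM was 3373.55 and 2219.80 against 451.56 in the parental input. PCBP4 had 0.36 with CBFB and 0.85 and 0.63 with hnRNPK, and HNRNPK itself had -0.59 and then -2.43 and -2.74. ERI3, of a family of 3′ exonucleases, had 1.27 with CBFB against 0.33 and 0.47, and YBEY, a mitochondrial RNA-processing endonuclease, had 1.02 against 0.19 and 0.64.

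CHCHD10, a mitochondrial protein of the intermembrane space, had an FPKM of 154.98 in the FLAG-CBFB cell input and 135.04 in the FLAG-CBFB RIP. Parental cells had 292.89 in the input, 29.64 in hnRNPK repeat 1 and 32.49 in repeat 2. All 3 RIPs were below their inputs, by 9.88 and 9.01 times in the hnRNPK RIPs. These plain FPKM ratios of 0.101 and 0.111 were above the medians of 0.061 and 0.055 over the analysed genes. Enrichment was 1.14 with CBFB and -0.65 and -0.45 with hnRNPK, with a gap of 1.70. CHCHD2, its closest relative, had -0.25 with CBFB and -3.06 and -3.10 with hnRNPK. STMP1, a short mitochondrial membrane protein, had 1.10 with CBFB and 0.53 and 0.54 with hnRNPK. The 92 analysed genes of the respiratory chain and ATP synthase, the 78 of the mitochondrial ribosome and the 82 of the cytosolic ribosome had medians of -0.15, -0.14 and -0.49 with CBFB and -2.22, -1.93 and -2.62 with hnRNPK, beside -0.19 and -0.11 over the analysed genes. None was a member, which says little of lists of this size when 28 of 11764 genes were members.

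The remaining 5 members are 4 antisense long noncoding RNAs and 1 identifier (ENSG00000197775) that GENCODE 29 does not hold. Of 256 long noncoding RNAs that met the input criteria, 32 were above 1 with CBFB, beside 7.07% of all such genes. Of these 32, 26 were shared and 4 were members, beside 92.8% and 3.97% over all genes. MINCR, a noncoding RNA induced by MYC, had an FPKM of 20.75 in the FLAG-CBFB cell input, 19.45 in the FLAG-CBFB RIP, 28.18 in the parental input, then 5.45 and 4.25 with hnRNPK, and its enrichment was 1.25 against 0.43 and 0.20. CASC8 had an FPKM of 4.06, 3.96, 6.47, 0.33 and 0.63 in the same order and an enrichment of 1.31 against 0.12 and 0.48, on 22 and 39 counts in the hnRNPK RIPs. ENSG00000260465 had 1.01 against 0.08 and 0.30, and its 1790 nt lie opposite exons of DYNC1LI2. ENSG00000254873 had 1.11 against 0.996 and 0.979 and shares 1967 nt with UBE4A and 261 nt with ATP5MG on the opposite strand. The FPKM of ATP5MG was 242.54 in the FLAG-CBFB cell input and 402.64 in the parental input. Whether the counting used strand is not given in the sources used here. Reads of ENSG00000260465 and ENSG00000254873 and of their partners thus cannot be told apart. The same holds for exonic overlaps of INO80E with HIRIP3 (1143 nt), PCBP1 with PCBP1-AS1 (914 nt), ATP6V0E2 with ATP6V0E2-AS1 (864 nt) and ANAPC15 with LRTOMT (780 nt).

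The members nearest to the threshold were close to genes just outside it. On the CBFB side CST3 (1.0001), ENSG00000260465 (1.01) and YBEY (1.02) lay just inside, and ENSG00000228830 (0.9987), EMP3 (0.9953) and KAZALD1 (0.9792) just outside. On the hnRNPK side ENSG00000254873 (0.996 and 0.979), RAB25 (0.99 and 0.64) and GKAP1 (0.94 and 0.76) lay just inside. DTX2 (0.94 and 1.01) and TAGLN2 (0.81 and 1.05) lay just outside, and so did SNRPA, a protein of the U1 snRNP of the spliceosome, with 1.02 in repeat 1 and 0.05 in repeat 2. SNRPA had a FLAG-CBFB enrichment of 3.003, above every member, and a gap of 2.47. Its FPKM was 96.61 and 308.14 in the input and RIP of FLAG-CBFB cells, and 130.81, 42.75 and 20.36 for the parental input and hnRNPK repeats 1 and 2.

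Counting intervals were set beside the threshold for the members only, which the rule had already placed on their side of it. They describe closeness to the threshold and lend the membership no support. The 95% counting interval of the FLAG-CBFB enrichment reached 1 in 7 of 28, that of an hnRNPK repeat reached 1 in 3, and all 3 intervals were clear of 1 in 19. The intervals take expected counts as Poisson and cover counting error only. For weak transcripts the added 1 FPKM also limits how low an enrichment can go. With no count in the RIP at all, GKAP1, ENSG00000254873 and ENSG00000197775 would still have an hnRNPK enrichment above 0 in both repeats. ENSG00000197775 was near that floor, with 272.69 expected counts in the parental input but 1.89 and 14.19 with hnRNPK, and its hnRNPK enrichments were 0.45 and 0.68.

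The members were short transcripts, a property the rule did not use. The mean transcript length in the parental input had a median of 1241 nt in the members, 2284 nt in the shared genes and 2047 nt in the analysed genes. It was 2918 nt in the 948 genes above 1 in both hnRNPK RIPs but below 1 with CBFB under the same input criteria. Transcripts under 1000 nt made up 11 of 28 members (39.3%), against 5.04% of the shared genes, 4.22% of the genes enriched with hnRNPK only and 14.9% of the analysed genes. These shares are a description with no test, and FPKM itself divides by length.

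The share of members changed from bin to bin of length. Of the 49 CBFB-enriched genes under 1000 nt, 11 were members (22.4%), and of the 251 from 1000 to 2000 nt, 15 were (5.98%). The members numbered 2 of 312 (0.641%) from 2000 to 4000 nt and 0 of 94 at 4000 nt and over. The median hnRNPK enrichment of these CBFB-enriched genes was 1.66, 2.32, 2.83 and 3.29 in the 4 bins in order of length. The order was present across the analysed genes too, with hnRNPK medians of -0.72, -0.56, 0.08 and 0.51 from the shortest bin to the longest, whereas the CBFB medians ran the other way, at 0.06, -0.13, -0.30 and -0.46. The part that length plays in the membership was not tested.

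**Figure D3:**
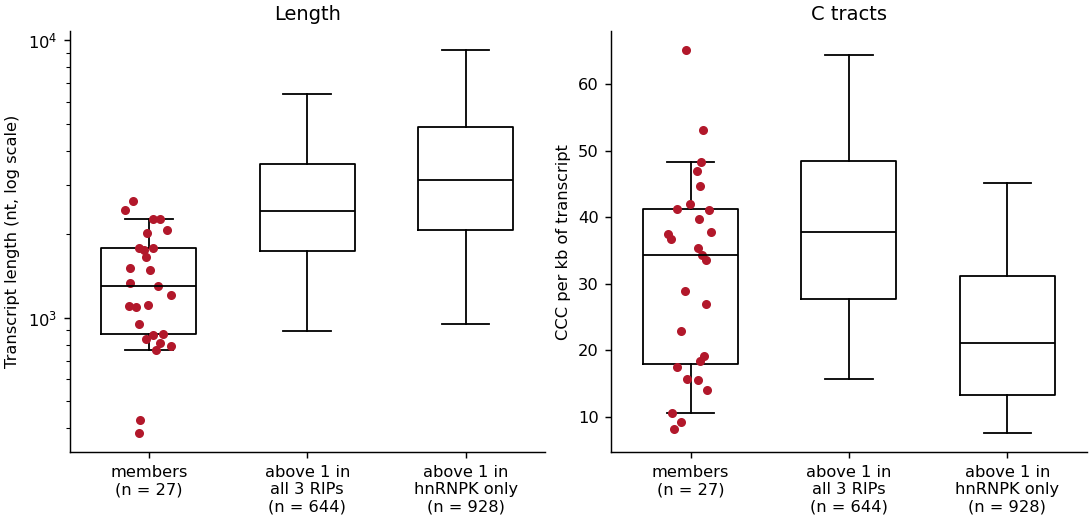
Transcript length (left, nt, log axis) and CCC per kb of transcript (right) for 27 members with a transcript model (red points), 644 shared genes and 928 genes enriched with hnRNPK only, where boxes give quartiles and median and whiskers the 5th and 95th percentiles. Members were shorter (median 1297 nt against 2434 and 3138 nt), and their CCC density (34.3 per kb) lay nearer to that of the shared genes (37.8) than to that of the hnRNPK only genes (21.1).

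In base composition the members lay nearer to the shared genes than to the analysed genes. A transcript model was found for 27 of 28 members, 644 of 655 shared genes and 11538 of 11764 analysed genes. The trinucleotide CCC, counted on the RNA strand with overlapping matches, occurred at a median of 34.3 per kb in the members, 37.8 per kb in the shared genes and 17.8 per kb in the analysed genes. C made up 29.3%, 30.9% and 24.2% of bases, and G and C together 56.2%, 57.8% and 49.6%. Among transcripts under 1500 nt, CCC occurred at 38.8 per kb in 16 members, 33.7 per kb in 120 shared genes and 17.97 per kb in 3272 analysed genes. Per transcript, CCC occurred a median of 39 times in the members, 93 times in the shared genes and 40 times in the analysed genes. These counts describe letters and were not related to binding.

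Within the members the density of CCC varied widely. CHCHD10 had 65.1 per kb in a model of 384 nt, CYSRT1 53.2, INO80E 48.4, IFITM3 47.0 and CST3 44.7. At the low end were ENSG00000254873 with 8.20 per kb, GKAP1 with 9.27, STMP1 with 10.6 and CASC8 with 13.9. For some members even the closest model differed in length from the mean in the parental input. It was 2450 against 1224 nt in STMP1, 1297 against 830 nt in CYSRT1 and 836 against 1453 nt in PHF19. Their densities, and the printed windows of CYSRT1 and PHF19, may thus describe other isoforms than those counted. A 30-nt window with at least 19 C, as in IFITM3, was present in 14 of 27 members (51.9%), in 74.5% of the shared genes, in 45.0% of the hnRNPK only genes and in 30.8% of the analysed genes. Coding sequences were short, with a median of 615 nt in 23 members against 1287 nt in the shared genes and 1230 nt in the analysed genes, and 3′ UTRs had a median of 278 nt against 835 and 624 nt.

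The inputs themselves differed for the members, although the rule held them within 2-fold. In 26 of 28 members the FPKM was lower in the FLAG-CBFB cell input than in the parental input, which was so for 51.5% of the genes that met the input criteria and 60.8% of the shared genes. The median ratio of FLAG-CBFB cell input to parental input was 0.75 in the members and 0.92 in the shared genes. The exceptions were CTNNBIP1 (1.957) and STMP1 (1.19). A low own input raises the FLAG-CBFB enrichment and a high parental input lowers the hnRNPK enrichment, so each gap was computed again with other inputs. With the mean of both inputs as the divisor for every RIP, a choice made after seeing the data, the gap was above 0 in 24 of 28 and above 1 in 5. With the inputs exchanged it was above 0 in 18 and above 1 in 4. Such counts over all genes are not given here, and the members were chosen on the same RIPs. With own inputs the median gap was -0.083 in the genes that met the input criteria. With the mean of both inputs the gap was above 0 in 89 of the 655 shared genes. The full rule was still met by 11 of the 28 with the mean of both inputs and by 5 with the inputs exchanged.

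IFITM3 was the member whose gap moved least, at 2.13 with its own inputs, 2.14 with their mean and 2.15 with the inputs exchanged. CYSRT1 had 1.76, 1.53 and 1.298, and CST3 had 2.09, 1.39 and 0.69. PHF19 went from 1.89 to 1.02 and 0.16, and CHCHD10 from 1.70 to 0.81 and -0.070. Both had an input in FLAG-CBFB cells that was 0.53 times the parental one. CTNNBIP1 went the other way, from 0.79 to 1.75 and 2.72. The gaps of STRADA, GKAP1, TMEM125 and ATP6V0E2 were below 0 with the mean of both inputs (-0.18, -0.26, -0.17 and -0.11). In bulk RNA, less of a transcript per cell and fewer cells that hold it cannot be told apart.

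**Figure D4:**
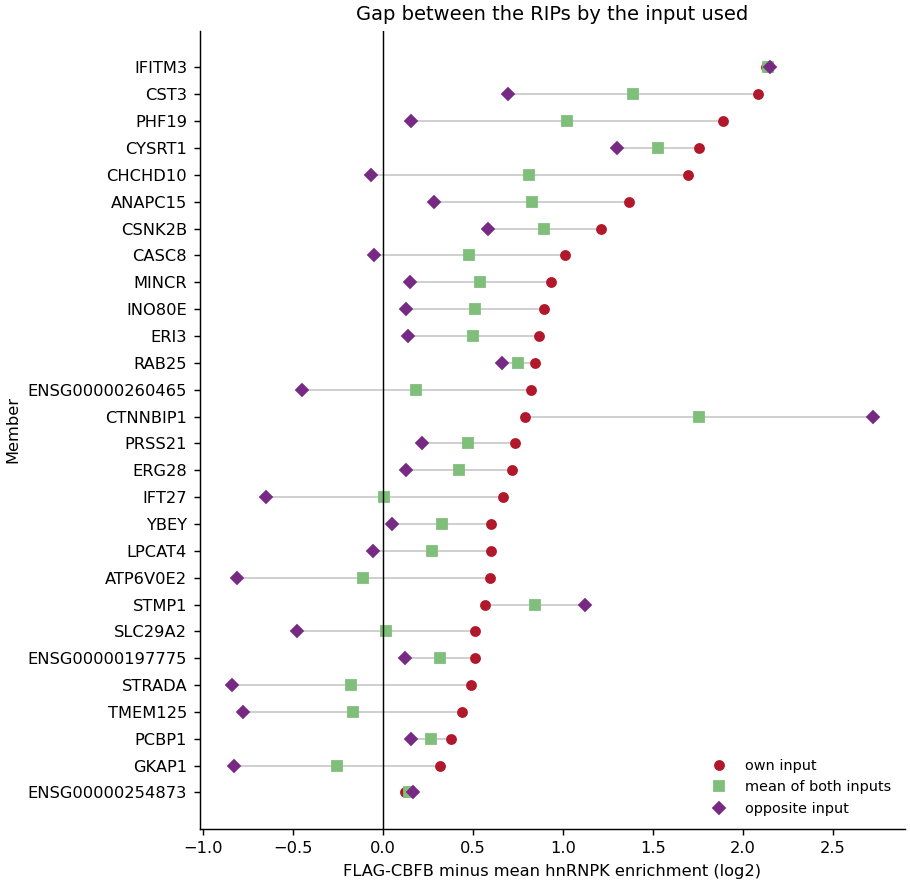
Gap of each of the 28 members (FLAG-CBFB minus mean hnRNPK enrichment, log2), with the own input of each RIP (red circle), the mean of both inputs (green square) and the opposite input (purple diamond). IFITM3 stays between 2.13 and 2.15, while CHCHD10 runs from 1.70 to -0.070 and CTNNBIP1 from 0.79 to 2.72.

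As a part of each library the members were few. Of all counts they made up 0.1291% in the input and 0.1337% in the RIP of FLAG-CBFB cells. For parental cells the shares were 0.1556% in the input and 0.0319% and 0.0285% with hnRNPK. Leaving mitochondrial counts out of the totals, the shares were 0.1348% and 0.3535% for FLAG-CBFB cells, and 0.1751%, 0.2061% and 0.2123% for the parental input and the hnRNPK RIPs. On that scale the members' summed share was higher in all 3 RIPs than in their inputs, and more so in the FLAG-CBFB RIP. The rule had chosen the members by their enrichment in these same libraries, and no such share is given for other genes. Abundant members weigh most in the sum. In the FLAG-CBFB RIP, IFITM3 held 26664.69 and PCBP1 17789.58 of the 121472 member counts.

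For reference, RUNX1, the partner of CBFB, had a FLAG-CBFB enrichment of 2.13 and hnRNPK enrichments of 3.29 and 2.89 and was thus a shared gene. GAPDH had -0.18 with CBFB and -2.66 and -2.72 with hnRNPK, and CBFB, which the rule leaves out, had 0.67, -0.96 and -1.10. A wide gap was not particular to the members. It was above 1 in 1795 and above 2 in 374 of the 9987 genes that met the input criteria, among them GAPDH with 2.50. Among the 655 shared genes it was above 1 in 14.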

How the data were processed

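RNA was extracted with Trizol and a column kit and sequenced after a TruSeq mRNA preparation. The submitters' processing notes name Trimmomatic, STAR, RSEM and the build hg19, and neither versions, the annotation nor the strand setting of the counting are given in the sources used here. The authors quantified each library with RSEM, and the deposited expected counts are estimated counts per gene in which a read that matches several genes is divided among them. The FPKM values, also as deposited by the authors, are those estimates per kilobase of effective length, scaled to the library's total, and the tables give a mean transcript length per gene. Each sample's group was taken from its title.

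The tables pair no symbols with their 56632 Ensembl identifiers, so 50276 were named by identifier and 1221 by their transcripts, with a gene name table and with GENCODE 29. Coordinates are GENCODE 29 on GRCh38 and were not converted. For base composition, the complete transcript model closest in length to the mean length in the parental input was read from the GENCODE 29 transcripts.

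Enrichment was the log2 ratio of FPKM + 1 between RIP and own input, from which the mean over all genes averaging at least 1 FPKM was subtracted. A fold on this scale understates the change of weak genes. FLAG-CBFB had 1 library per arm and hnRNPK 2 repeats against 1 input, and the rule used every contrast, so no test was run. The 95% counting intervals take expected counts as Poisson and cover counting error only. The members and the gene lists were chosen with earlier results of these data known. Members in the text are the 10 with the highest FLAG-CBFB enrichment, the 5 with the highest FPKM in the FLAG-CBFB RIP, the lowest hnRNPK enrichment or the widest gap, the 3 on each side of each threshold, and those of a list with 3 or more members. This gives 19 of the 28, and the other 9 are named to account for every member.

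Alternatives were another pseudocount (0.1), other centring and scaling, other filters, FPKM without mitochondrial genes, exchanged inputs, each hnRNPK repeat left out, other thresholds, and log2 CPM (prior count 2) of the expected counts with TMM factors of edgeR 4.0.16 or size factors of DESeq2 1.42.0 in R 4.3.3. The rest was computed in Python 3.11.15 with numpy 2.4.6 and pandas 2.3.3.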

Additional observations from a re-analysis of the deposited data

Results flagged for a closer look

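IFITM3, CST3, PHF19 and CHCHD10 were above the average gene in the FLAG-CBFB RIP and below it in both hnRNPK RIPs, the only 4 of the 706 CBFB-enriched genes with a mean hnRNPK enrichment under 0. Their gaps were 2.13 for IFITM3, 2.09 for CST3, 1.89 for PHF19 and 1.70 for CHCHD10. This difference was not tested: with CBFB there was 1 library per arm, and the rule itself selects for it. The gap of IFITM3 was 1.496 to 3.43 over the alternatives, including the exchanged inputs. Those of CST3 (0.69), PHF19 (0.16) and CHCHD10 (-0.070) were lower with the inputs exchanged. The sign of the hnRNPK value also depended on the processing. On log2 CPM with TMM factors the gap and the FLAG-CBFB enrichment were 1.497 and 1.92 for IFITM3. They were 0.44 and 1.01 for PHF19 and 1.06 and 1.47 for CHCHD10. A gap below the FLAG-CBFB enrichment means a mean hnRNPK enrichment above 0 in these genes. For CST3 it stayed below 0, at 1.34 and 1.24.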

How the results depend on the processing

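The number of members was 28 and moved with most choices. With the number of the reported members among them in brackets, it was 21 with a pseudocount of 0.1 (12), 103 with no centring (0), 43 with median centring (24) and 59 after scaling RIP and input to the same mean FPKM (0). It was 76 over all genes with an FPKM above 0 (4), 11 over genes averaging at least 5 FPKM (8), 15 without mitochondrial genes (9) and 27 with the inputs exchanged (5). It was 18 on log2 CPM with TMM factors (9) and 18 with DESeq2 size factors (9), 16 with the mean of both inputs (11), chosen after seeing the data, and 39 and 40 without 1 hnRNPK repeat (28 each). It was 76 at a threshold of 0.5 (9), 21 at a threshold of 2 (0), 72 with no limit on the input ratio (28) and 28 with no count minimum (28). Leaving out an hnRNPK repeat, the limit on the input ratio or the count minimum relaxes the rule and cannot lose a member. Of the reported 28, CYSRT1 was kept in 9 of 11 alternatives of scaling, filter and input, IFITM3 in 8, and RAB25 and SLC29A2 in 0.

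In that order of alternatives from the pseudocount to the DESeq2 factors, the median FLAG-CBFB enrichment of the 28 was 1.47, -0.087, 1.44, -0.83, 0.58, 1.33, 1.39, 0.89, 1.42 and 1.42, and it was 1.07 with the mean of both inputs. The median hnRNPK enrichment was 1.01, -2.13, 0.62, -2.68, -0.84, 0.97, 1.04, 0.83, 1.23 and 1.23, and 0.73 with the mean of both inputs. The median gap was 0.53, 2.06, 0.84, 1.85, 1.45, 0.38, 0.44, 0.13, 0.31 and 0.31, and 0.48 with the mean of both inputs. Without 1 hnRNPK repeat the medians ranged from 0.49 to 0.59 for hnRNPK and from 0.76 to 0.80 for the gap, and the FLAG-CBFB median does not use the repeats.

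FLAG-CBFB enrichment of the 19 members named by the rule was below 0 in all 19 after scaling RIP and input to the same mean FPKM, at CSNK2B -0.38, CYSRT1 -0.30, ANAPC15 -0.38, INO80E -0.51, RAB25 -0.60, IFITM3 -0.61, PHF19 -0.77, LPCAT4 -0.79, CTNNBIP1 -0.83, PRSS21 -0.80, CHCHD10 -1.11, PCBP1 -1.19, CST3 -1.24, ENSG00000260465 -0.92, YBEY -1.08, ENSG00000254873 -0.89, GKAP1 -0.67, CASC8 -0.71 and MINCR -0.95. With no centring it was below 0 in 9, at CHCHD10 -0.20, PCBP1 -0.27, CST3 -0.34, ENSG00000260465 -0.33, YBEY -0.32, ENSG00000254873 -0.23, GKAP1 -0.17, CASC8 -0.029 and MINCR -0.089. The gap was below 0 on log2 CPM with TMM factors for RAB25 -0.091, LPCAT4 -0.13, CTNNBIP1 -0.076 and PCBP1 -0.28, and with DESeq2 size factors for RAB25 -0.092, LPCAT4 -0.13, CTNNBIP1 -0.077 and PCBP1 -0.28. It was below 0 with the inputs exchanged for LPCAT4 -0.054, CHCHD10 -0.070, ENSG00000260465 -0.45, GKAP1 -0.83 and CASC8 -0.052, over genes averaging at least 5 FPKM for ENSG00000254873 -0.26 and GKAP1 -0.061, with the mean of both inputs for GKAP1 -0.26, and for PCBP1 with a pseudocount of 0.1 (-0.17) and without mitochondrial genes (-0.22). The cause of these changes was not tested.

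No paired analysis was possible because only hnRNPK RIP has numbered repeats, so no number is shared between groups. Depth limits the weakest members most, since CASC8, CYSRT1, GKAP1, ENSG00000197775 and ENSG00000260465 had under 100 counts in each hnRNPK RIP. The spread of the FLAG-CBFB RIP was not measured.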
